A study of Mus musculus with 6 samples.

Results

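Pmch and Hcrt spots are the spots of the brain sections in which the summed level of Pmch and Hcrt, the genes for the precursors of melanin-concentrating hormone (MCH) and of the orexins, reached 1000 CPM, where CPM is the UMI count of a gene scaled to a common total of UMIs. They were selected on these measured values. Of 20336 spots with at least 500 UMIs (unique molecular identifiers, the counted molecules), 1394 were Pmch and Hcrt spots, which is 6.85%. P21 section 1 held 639 of them among 3598 spots, P21 section 2 held 257 among 3314, adult section 1 held 4 among 2917, adult section 2 held 196 among 3259, aged section 1 held 294 among 3679 and aged section 2 held 4 among 3569. As the 2 genes chose the spots, their levels are given as a description with no test, and both genes were taken out before any other gene was compared.

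The data are Visium counts from FFPE sections of brain hemispheres, cut coronally from untreated male C57BL/6J mice, a method that hybridizes a panel of mouse probes to the tissue and assigns each UMI to a spot of the array. There were 6 sections from biological replicates, 2 at postnatal day 21 (P21), 2 from adults of 12 to 15 weeks and 2 from aged mice of 28 months. P21 and adult sections lay directly on Visium v1 slides, and aged sections were transferred by CytAssist to Visium v2 slides. The authors also describe an enhanced probe design for the aged libraries. Slide version, probe design and aged vs. adult thus cannot be told apart. The median UMIs per spot of the 6 sections lay between 12074.5 and 25535. Between 2612 and 2997 spot barcodes were shared by any pair of P21 and adult sections and 3364 by both aged sections, since arrays of a slide version use the same barcodes. A spot is a small region that can hold several cells, and each spot is a part of its section, so that sections and not spots are the replicates. Comparisons used the 4 sections with 10 or more Pmch and Hcrt spots, 1386 spots in all. Values over these sections are given in the order P21 section 1, P21 section 2, adult section 2 and aged section 1.

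MCH neurons and orexin neurons are separate cell populations that lie side by side in the lateral hypothalamic area and the adjoining zona incerta, and both send axons through much of the brain. Orexins are excitatory peptides that keep animals awake and couple arousal to feeding and reward, and the loss of orexin neurons leads to narcolepsy. MCH acts through an inhibitory receptor, promotes feeding and energy storage, and its neurons are most active in rapid eye movement sleep. Pmch lies on chromosome 10 at 88091072 to 88092375 (GRCm38, plus strand) and overlaps Parpbp on the other strand, and Hcrt lies on chromosome 11 at 100761069 to 100762931 (minus strand).

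In each of the 4 sections with 10 or more of them, nearly all Pmch and Hcrt spots formed a single patch of touching spots. The largest patch held 619 of the 639 spots in P21 section 1, 236 of 257 in P21 section 2, 188 of 196 in adult section 2 and 293 of 294 in aged section 1. The median array row and column of the Pmch and Hcrt spots were 56 and 98 in P21 section 1, 60 and 84 in P21 section 2, 43 and 110.5 in adult section 2, and 63 and 82 in aged section 1. In P21 section 1 and adult section 2 Pmch and Hcrt spots reached column 127, the last column with tissue. Their share of all spots was 17.8% (exact 95% binomial interval 16.5 to 19.05) in P21 section 1, 7.75% (6.87 to 8.72) in P21 section 2, 6.01% (5.22 to 6.89) in adult section 2 and 7.99% (7.14 to 8.91) in aged section 1, where the intervals cover counting error only. The section with the most Pmch and Hcrt spots was thus P21 section 1, and both P21 sections differed from each other more than P21 section 2 did from either older section.

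**Figure D1:**
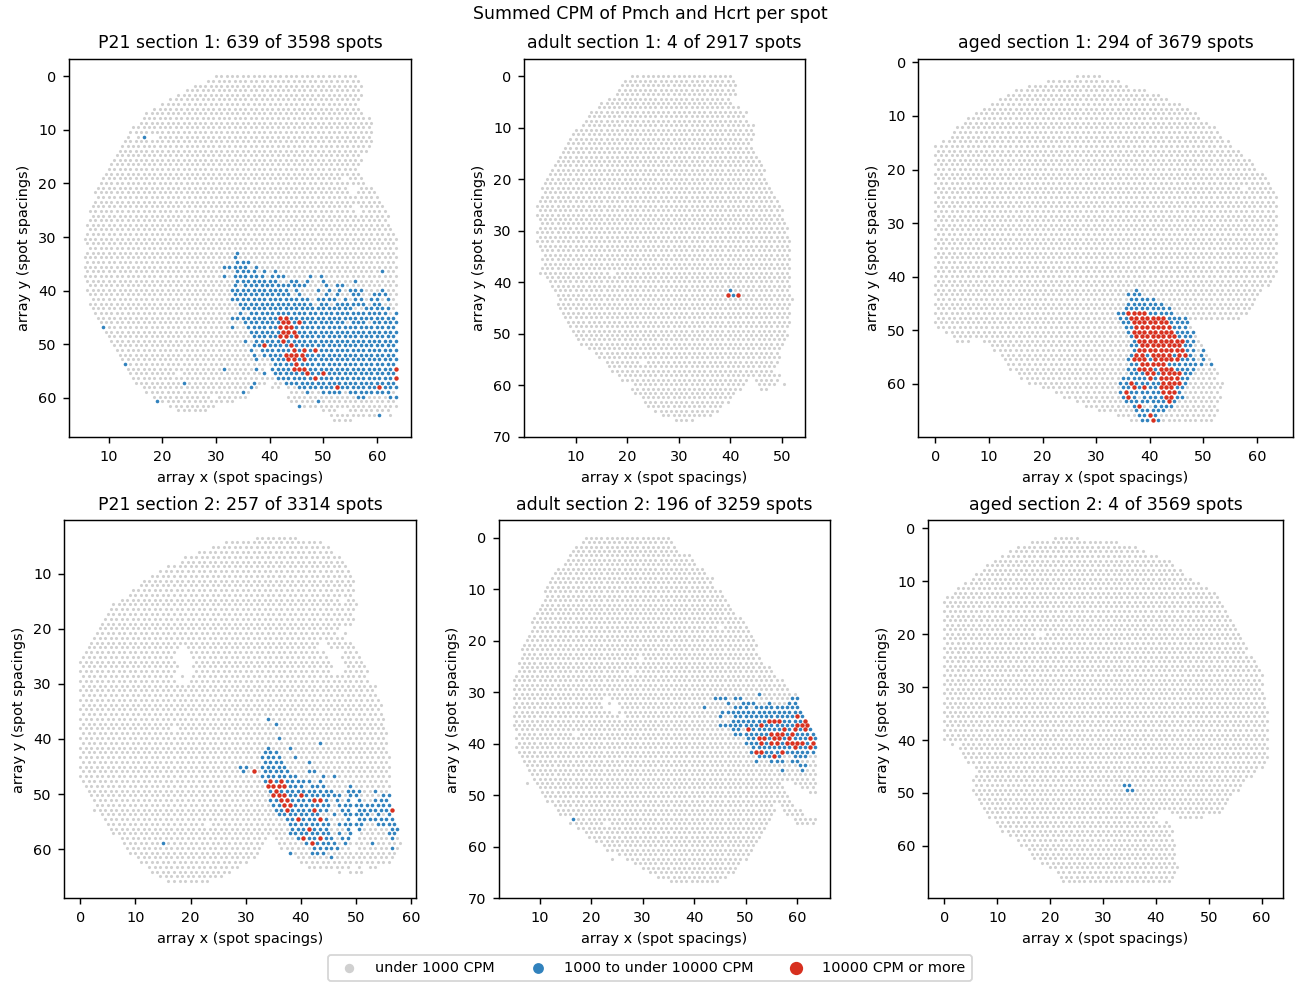
Position of every spot in the 6 sections, with both array axes in spot spacings; grey spots have a summed Pmch and Hcrt level under 1000 CPM, blue spots 1000 to under 10000 CPM and red spots 10000 CPM or more. The 639, 257, 196 and 294 Pmch and Hcrt spots of 4 sections form 1 large patch each, and adult section 1 and aged section 2 hold 4 spots each.

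In the 4 compared sections no gap separated the Pmch and Hcrt spots from the others around the threshold. The highest summed level below it was 998 CPM in P21 section 1, 997 in P21 section 2, 993 in adult section 2 and 963 in aged section 1, and the lowest above it was 1008, 1001, 1008 and 1021 CPM. Spots from 900 to 1000 CPM numbered 50, 29, 16 and 10, and those from 1000 to 1100 CPM numbered 44, 27, 12 and 8. In adult section 1 the levels next to the threshold were 839 and 1178 CPM, and in aged section 2 they were 505 and 1013 CPM. A core of spots with 10000 CPM or more, a bound chosen after the data had been seen, held 38, 27, 37 and 126 spots. The core was thus largest in aged section 1, and the rim between both bounds was largest in P21 section 1.

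Both genes stood higher in the adult and aged sections than in either P21 section when pooled over the spots, and highest in the aged section. Pooled over the Pmch and Hcrt spots, Pmch stood at 3424, 3912, 4990 and 10715 CPM and Hcrt at 377, 733, 1951 and 4760 CPM. The highest single spots held 61363, 84658, 64687 and 72576 CPM of Pmch and 16827, 12629, 29990 and 52108 CPM of Hcrt. Spots with Pmch alone at 1000 CPM or more numbered 564, 189, 121 and 141, those with Hcrt alone 2, 7, 6 and 6, and those with both genes at that level 26, 15, 43 and 135. The remaining 47, 46, 26 and 12 spots reached the bound only by the sum. In a ranking of all genes by Moran's I, a measure of how alike neighbouring spots are, Pmch stood at 0.807, 0.617, 0.700 and 0.920, with ranks 3, 17, 8 and 1, and Hcrt at 0.613, 0.491, 0.682 and 0.887, with ranks 55, 77, 11 and 2.

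Around the core the level of Pmch declined over a long distance in both P21 sections and adult section 2 and over a short one in aged section 1. Core spots had 23998, 19853, 17347 and 19868 CPM of Pmch, levels within 1.5 times of each other. At 9.5 to 14.5 spot spacings from the nearest core spot 606, 219, 202 and 5.46 CPM were left, and at 29.5 to 40.5 spacings 139, 113, 42.0 and 1.80 CPM. Spots with at least 1 Pmch UMI made up 98.2%, 78.5%, 59.9% and 17.9% of all spots of the section, at a median depth per spot of 23543.5, 12074.5, 14603 and 19580 UMIs. Of all Pmch UMIs, 25.8%, 18.7%, 14.5% and 0.372% lay over 10 spacings from the core, and of all Hcrt UMIs 27.7%, 11.9%, 11.4% and 0.648%. So both P21 sections and adult section 2 were alike in holding Pmch counts far from the patch, and aged section 1 was apart from them. Adult section 1, which held only 1478 Pmch UMIs, had a Pmch UMI in 16.6% of its spots, close to aged section 1.

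The same contrast between sections was seen for Ttr, the transthyretin gene of the choroid plexus, which has its source elsewhere in the section. A Ttr UMI was present in 100%, 98.7%, 93.6% and 51.0% of spots, and the 5% of spots with the most Ttr held 72.1%, 72.3%, 80.0% and 98.0% of its UMIs. For Pmch that share was 48.2%, 61.2%, 75.7% and 93.7%. Among the 4 compared sections both genes were most widely scattered in P21 section 1 and least in aged section 1. In adult section 1 and aged section 2 a Ttr UMI was present in 99.6% and 46.9% of spots. The 5% of spots with the most Ttr held 83.7% and 98.6% of its UMIs there. Age, slide version and Space Ranger version cannot be told apart here, and whether counts away from the source are RNA that moved or RNA of cells there was not tested. The order of the sections by number of Pmch and Hcrt spots changed with the bound: with a bound of 10000 CPM in place of 1000 CPM, aged section 1 held the most spots and P21 section 2 the fewest of the 4 sections.

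**Figure D2:**
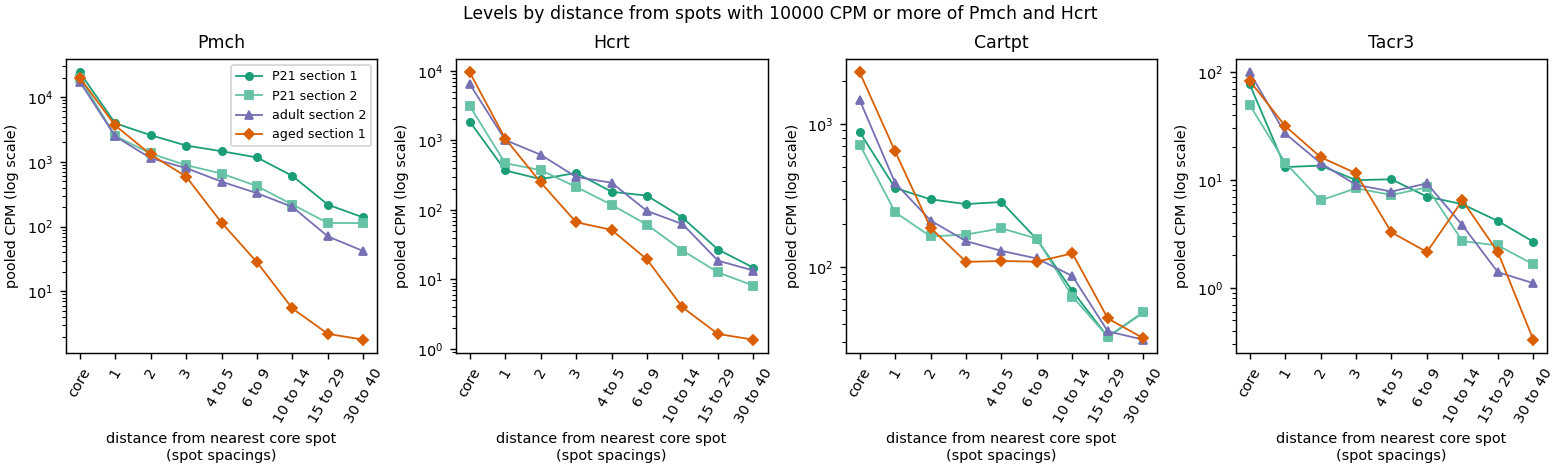
Pooled CPM (log scale) of Pmch, Hcrt, Cartpt and Tacr3 by distance in spot spacings from the nearest spot with 10000 CPM or more of Pmch and Hcrt, with 1 line for each of 4 sections. Pmch falls from 19868 CPM in the core to 1.80 CPM at the far end in aged section 1 and from 23998 to 139 CPM in P21 section 1.

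The spots were next compared with their surroundings, which asks which other genes mark them at the same level of the brain. For each section UMIs were summed over the Pmch and Hcrt spots and over the other spots within 3 spacings of them, 580, 439, 239 and 212 spots, and the sums were fitted with the section as a block (edgeR quasi-likelihood test, Benjamini-Hochberg adjustment). Genes count as called where the adjusted p is below 0.05 and the fold change exceeds 1.5. Of 11320 genes 484 were called, which is 4.28%, with 197 (1.74%) higher and 287 (2.54%) lower in the Pmch and Hcrt spots. For 722 genes, 6.38%, the sections did not overlap between both sums. Without the block no gene was called by edgeR, 1030 genes had an unadjusted p under 0.05, and DESeq2 called 116. CPM are scaled with the TMM factors of each comparison and leave Pmch and Hcrt out.

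Cartpt, the gene for the CART peptide that many MCH neurons also make, had the largest rise among genes of at least 20 CPM that moved the same way in all 4 sections. It stood at 251, 268, 517 and 1293 CPM in the Pmch and Hcrt spots and at 138, 148, 110 and 114 CPM nearby (log2 fold change 1.77 ± 0.34 SE, edgeR adjusted p = 0.00394). Its lowest value in the spots was above its highest value nearby, and the gap was widest in the aged section. Tacr3, the neurokinin B receptor carried by MCH neurons, stood at 14.3, 16.7, 35.0 and 51.4 CPM against 5.91, 6.52, 8.14 and 8.79 CPM (1.74 ± 0.19, edgeR adjusted p = 0.000174), also without overlap. Both rose in every section. Without aged section 1, which had the highest Cartpt value, the log2 fold change of Cartpt was 1.25 and the call stayed.

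Of the 8 genes listed as MCH neuron genes, 3 were called higher and 1 lower than nearby, with a median log2 fold change of 0.49 against 0.00 over all genes tested. The third gene that rose was Gad1, which makes the enzyme for GABA, at 0.60, and the gene that fell was Zic1, a transcription factor gene, at −0.82. Slc17a6, the vesicular glutamate transporter of hypothalamic neurons, had 195, 220, 191 and 194 CPM against 227, 273, 280 and 334 CPM, a log2 fold change of −0.45 that did not reach the fold of the call. Of 8 orexin neuron genes 7 were tested and 4 called higher, with a median of 0.72. These were Gal (galanin) at 1.23, Scg2 (secretogranin II, a granule protein) at 0.99, Pdyn (prodynorphin, a peptide precursor of orexin neurons) at 0.95 and Pcsk1 (prohormone convertase 1) at 0.72. Nptx2, a synaptic pentraxin of orexin neurons, and Lhx9, a transcription factor gene of the same cells, were at −0.22 and −0.14 and were not called. Of the receptors for the peptides themselves, the orexin receptor Hcrtr2 rose by 0.89 and the MCH receptor Mchr1 was at 0.04, not called.

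Other called genes belonged to peptides and regulators of the medial hypothalamus. All 6 genes listed as dorsomedial were called higher, with a median log2 fold change of 1.58: Gal, Grp (gastrin-releasing peptide, 0.74), the homeobox genes Hmx2 (1.95) and Hmx3 (1.93), Npvf (precursor of RFamide-related peptides, 3.20) and Ppp1r17 (1.17). Summed over that list the Pmch and Hcrt spots had 192, 232, 91.2 and 271 CPM and the spots nearby 60.7, 145, 39.1 and 66.3 CPM, with Gal the most abundant gene and no gene at 0 in all sections. At 1000 CPM the spots thus held genes of a neighbouring hypothalamic nucleus beside those of the lateral hypothalamic area, and they are named here by their genes. Without P21 section 1 the value of Ppp1r17 was 0.54 and its call was lost, and without P21 section 2 it was 1.75.

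The remaining genes with the largest rises included Npas1, a transcription factor gene (1.21), Gm45194, annotated as protein coding (1.19), and the imprinted Dlk1, which codes for a Notch ligand relative (1.18). The others were Nxph4, a neurexin ligand (1.17), Sncg (gamma-synuclein, 1.15) and Nts (neurotensin, 1.13). Dlk1 stood at 175, 284, 195 and 317 CPM against 87.8, 160.3, 58.8 and 121 CPM, without overlap (edgeR adjusted p = 0.000112). Of 16 imprinted genes 6 were called higher and none lower, with a median of 0.55. These were Asb4, Calcr, Dlk1, Impact, Nap1l5 and Peg10. Of 20 genes for granule proteins and peptide processing 3 were called higher (Pcsk1, Resp18 and Scg2) and none lower, with a median of 0.27.

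Among genes of at least 20 CPM with 1 direction in all 4 sections, the largest falls were those of Oxt (oxytocin, −1.78), Prkcd (a protein kinase C of thalamic relay neurons, −1.78), Avp (vasopressin, −1.64), Eps8l2 (−1.57) and Tnnt1 (−1.56). Oxt stood at 0.462, 3.62, 55.0 and 80.8 CPM in the Pmch and Hcrt spots and at 0.867, 3.66, 68.0 and 564 CPM nearby, so that its fall rested on the aged section. Without aged section 1 the values of Oxt and Avp were −0.31 and −0.63, and Oxt was no longer called. Without adult section 2 the value of Avp was −2.62. All 10 genes of the thalamus list were called lower, with a median of −1.26 and Adarb1 as the most abundant gene. That list summed to 1259.9, 1048, 1652 and 418 CPM in the Pmch and Hcrt spots and to 2126, 2364, 3948 and 2260.4 CPM nearby, with no gene at 0 in all sections. Thalamic tissue next to the patch moved with these falls, and its part in the calls was not tested. None of 15 oligodendrocyte genes, 12 microglial genes or 9 endothelial genes was called, and of 12 astrocyte genes Gfap was called, lower.

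The core was compared in the same way with the spots within 3 spacings of it, 259, 226, 160 and 242 spots, which include other Pmch and Hcrt spots. This comparison was added after the data had been seen. Of 11166 genes 116 were called, 1.04%, with 74 (0.663%) higher and 42 (0.376%) lower, and 60 of them were also among the 484 above. Tacr3 had the largest rise among genes of at least 20 CPM, at 80.2, 51.8, 102 and 84.8 CPM against 12.1, 10.6, 18.97 and 21.5 CPM (log2 fold change 2.32 ± 0.15 SE, edgeR adjusted p = 3.72e-14). Cartpt followed at 911, 748, 1498 and 2331 CPM against 301, 195, 287 and 353 CPM (2.20 ± 0.09, edgeR adjusted p = 1.16e-20). Both genes were higher in the core than around it in every section, with no overlap, and Cartpt was higher in the adult and aged cores than in both P21 cores.

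After them came Igf1 (insulin-like growth factor, 2.11), Chodl (chondrolectin, 1.77), Pdyn (1.66), Kcng3 (a potassium channel subunit, 1.54), C1ql3 (a secreted synaptic C1q-like protein, 1.41), Wnt2b (1.39), Creb3l1 (1.38) and Pcsk1 (1.35). Chodl stood at 66.1, 51.8, 48.4 and 26.7 CPM in the core and at 18.2, 12.6, 10.5 and 12.0 CPM around it, above its surroundings in all 4 sections. Otx1, a homeobox gene below the 20 CPM bound in the mean of the sections, had a log2 fold change of 2.50, with 25.3, 12.9, 12.9 and 27.9 CPM against 2.94, 4.32, 4.04 and 3.90 CPM. Of the 8 MCH neuron genes 3 were called higher (Cartpt, Tacr3 and Nucb2, the gene for the nesfatin precursor) and 1 lower (Adcyap1, the PACAP gene), and of 7 orexin neuron genes 5 were called higher (Lhx9, Nptx2, Pcsk1, Pdyn and Scg2), with medians of 0.35 and 1.05. Granule and processing genes called higher were Nucb2, Pcsk1, Pcsk2, Scg2 and Vgf, 5 of 20, and none was lower. Here 5 of 10 thalamic genes were lower, none of 15 oligodendrocyte genes and none of 12 astrocyte genes were called, and of the 6 dorsomedial genes only Hmx3 was called.

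Several genes named for the whole patch were not called in the core. Gal, Npas1, Ppp1r17, Oxt and Tnnt1 lost their call there, and Nxph4 and Sncg changed sign, to −0.28 and −0.10. Cartpt, Tacr3, Scg2, Pdyn and Pcsk1 were called at both bounds, and Gal, Npas1 and Ppp1r17 at 1000 CPM but not at 10000 CPM.

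**Figure D3:**
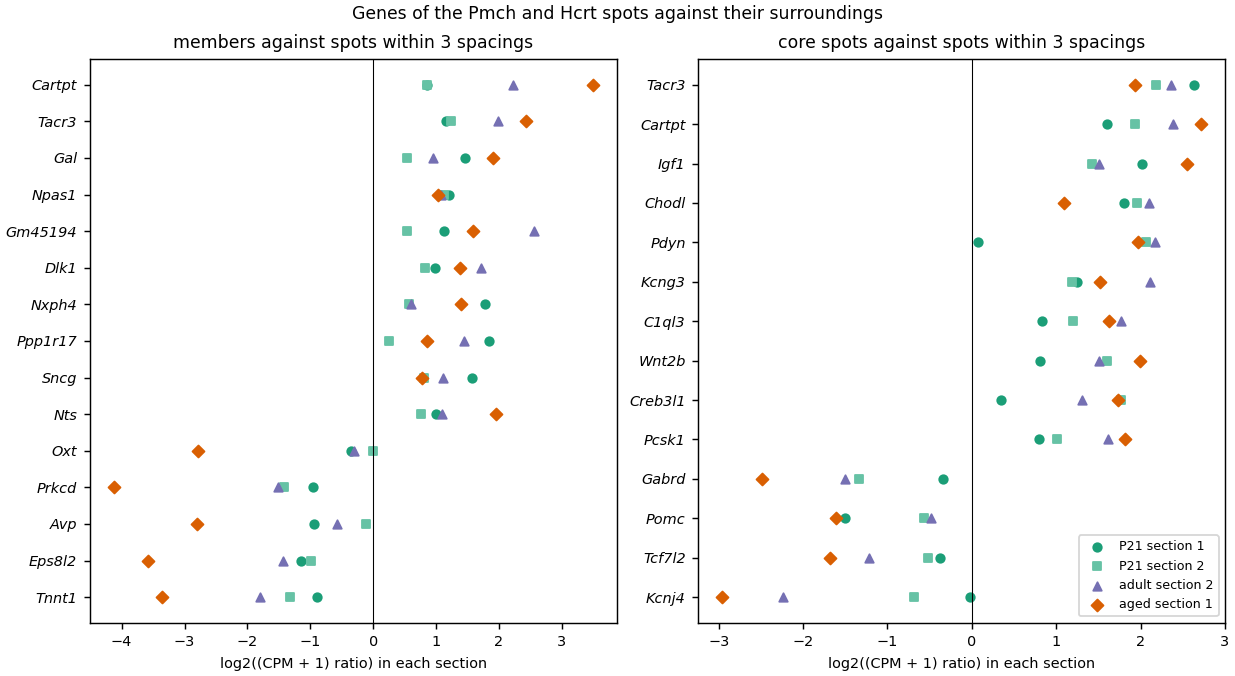
Log2 ratio of (CPM + 1) in each of 4 sections for the genes named by rule, in Pmch and Hcrt spots against spots within 3 spacings (left) and in core spots against spots within 3 spacings of them (right); each symbol is a section and the line marks no difference. In the right panel Tacr3 and Cartpt stand above 0 in all 4 sections, and in the left panel the aged section lies farthest to the left for Oxt.

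Levels by bins of summed Pmch and Hcrt are given as a description, since that sum chose the spots, the top bin is the core compared above and Cartpt and Tacr3 led that comparison. Cartpt had 40.5, 42.5, 38.6 and 48.6 CPM in spots under 100 CPM of both peptides, 132, 164, 174 and 224 CPM in spots from 1000 to 2000 CPM, and 874, 716, 1461 and 2278 CPM in the core. Tacr3 had 7.14, 12.6, 8.38 and 16.3 CPM in spots from 1000 to 2000 CPM and 76.9, 49.5, 99.1 and 82.9 CPM in the core. Gal had 150, 91.1, 73.3 and 171 CPM from 2000 to 10000 CPM and 140, 107, 55.0 and 218 CPM in the core. Slc17a6 had 226, 227, 237 and 217 CPM in spots from 1000 to 2000 CPM, 168, 204, 157 and 209 CPM in those from 2000 to 10000 CPM and 136, 235, 159 and 173 CPM in the core. Gad1 had 49.6, 27.2, 34.3 and 89.0 CPM in spots from 1000 to 2000 CPM, 59.9, 54.2, 69.95 and 145 CPM in those from 2000 to 10000 CPM and 54.0, 59.5, 61.3 and 158 CPM in the core. Gad1 in the core was thus above the outer bin in every section, but below the inner bin in P21 section 1 and adult section 2, and Slc17a6 in the core was below the outer bin in all but P21 section 2 and below the inner bin in P21 section 1 and aged section 1.

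Against all other spots of the same section far more genes were called than against nearby spots, and the cause was not tested. Of 11413 genes 1467 were called, 12.9%, with 636 (5.57%) higher and 831 (7.28%) lower in the Pmch and Hcrt spots (edgeR), and for 23.1% the sections did not overlap between both sums. Among genes of at least 20 CPM that moved the same way in all sections, the 10 largest rises were those of Gm45194 (log2 fold change 3.35), the receptor gene Pgr15l (3.29), Dlk1 (3.26), Tacr3 (3.20), Calcr (the calcitonin receptor, 3.03), Cartpt (3.02), Gal (3.01), Gabrq (a GABA-A receptor subunit of the hypothalamus, 2.96), Asb4 (2.94) and Slc18a2 (the vesicular monoamine transporter, 2.94). Gabrq stood at 93.3, 104, 54.5 and 130.2 CPM against 14.4, 21.5, 6.38 and 8.91 CPM elsewhere (2.96 ± 0.23 SE, edgeR adjusted p = 9.87e-05), far above the other spots in every section. Without aged section 1 the value of Tacr3 was 2.59 and that of Ttr −2.44, and both calls stayed. By the same rule the 5 largest falls were those of Ttr (−3.07) and of the genes Robo3 (an axon guidance receptor, −2.79), Emx1 (a cortical transcription factor, −2.77), Gm11549 (−2.76) and Igfbp6 (an IGF binding protein, −2.66).

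Of 18 tested transcription factor genes of the hypothalamus 11 were called higher and 1 lower, with a median log2 fold change of 1.13 against 0.02 over all genes. The higher genes included Nkx2-1 (2.88), Otp (2.30), Isl1 (1.74) and Hmx3 (4.23), and the lower gene was Meis2 (−0.69). Of 16 imprinted genes 13 were called higher and none lower, with a median of 1.38. Summed over that list the Pmch and Hcrt spots had 8669.9, 10129.6, 7358 and 10256 CPM and the other spots 4219.8, 4723, 3711 and 3954 CPM, with Gnas as the most abundant gene. Of 28 neuropeptide genes tested 16 were called higher and 4 lower, and the lower genes were Bdnf (a neurotrophin kept in that list), Cck, Npy and Vip. In the granule list Nucb2, Pam, Pcsk1, Pcsk1n, Peg3, Resp18, Scg2 and Sytl4 were higher and Chgb was lower.

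Most genes of the cortex and amygdala list moved the other way, and so did most immediate early genes. Of 10 genes of excitatory neurons of cortex and amygdala 9 were called lower, with a median of −2.26, and the list summed to 1426, 1220.5, 1631 and 502 CPM against 5013, 4464, 4883 and 5631 CPM. Of 13 immediate early genes 9 were lower and none higher, with a median of −1.16. That list summed to 176, 190.3, 229.6 and 336 CPM in the Pmch and Hcrt spots and to 335, 329, 420.2 and 1689.8 CPM elsewhere, and Egr1 was its most abundant gene. None of 15 oligodendrocyte genes was called, at a median of 0.21. In these bulk sums, fewer cells of a type and less RNA per cell cannot be told apart.

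Spots led by Pmch and spots led by Hcrt were then set against each other, to ask which genes go with either peptide. Spots with more Pmch than Hcrt UMIs numbered 627, 237, 160 and 237, those with more Hcrt UMIs 12, 19, 32 and 57, and 0, 1, 4 and 0 had equal numbers. Their centres lay 4.09, 3.43, 4.02 and 1.04 spot spacings apart, and 11, 17, 24 and 43 of the Hcrt-led spots touched a Pmch-led spot. Over the Pmch and Hcrt spots the Spearman correlation of the 2 genes was 0.16, −0.16, 0.25 and 0.40 (n = 639, 257, 196 and 294 spots). The spots of a section share a library, and their sum was used to choose them. The class centres were closest in aged section 1, and most Hcrt-led spots in each section bordered on the other class.

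With classes set by 1000 CPM of 1 gene alone, 3 sections held 5 or more spots of each class, and only 7, 6 and 6 Hcrt spots entered. Of 10464 genes 10 were called, 0.0956%, with 2 (0.0191%) higher in Pmch spots and 8 (0.0765%) higher in Hcrt spots (edgeR), and for 12.6% the sections did not overlap between the classes. Cartpt was higher in Pmch spots in P21 section 2, adult section 2 and aged section 1. It had 320.1, 637 and 1345 CPM against 119, 180 and 303 CPM (log2 fold change 1.89 ± 0.21 SE, edgeR adjusted p = 3.13e-06). Its lowest value in Pmch spots was above its highest value in Hcrt spots. Scg2 was higher in Hcrt spots in all 3 sections without overlap, with 614, 469 and 585 CPM against 1868, 1483 and 2129.8 CPM (−1.71 ± 0.14, edgeR adjusted p = 5.57e-09). The other genes higher in Hcrt spots were Pdyn (−2.54), C1ql3 (−2.19), Pcsk1 (−1.72), Dlk1 (−1.28), Nnat, 6330403K07Rik and Slc2a13.

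Prkcd was also called higher in Pmch spots (1.70), but without adult section 2 its value was 0.81 and the call was lost. Pcsk1 lost its call without P21 section 2 (−1.52) and without adult section 2 (−1.56), and Pdyn without aged section 1 (−2.33).

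With classes by the gene with more UMIs, chosen after the data had been seen, all 4 sections entered and 122 of 11144 genes were called, 1.09%, with 61 (0.547%) in each direction, the 10 genes above among them. Scg2 had 518, 617, 522 and 850 CPM in Pmch-led and 2447, 1973, 2608 and 2143 CPM in Hcrt-led spots (log2 fold change −1.88 ± 0.08 SE, edgeR adjusted p = 5.6e-38). Pdyn had 25.1, 25.8, 10.8 and 41.4 CPM against 101, 156, 104 and 139 CPM (−2.26 ± 0.16, edgeR adjusted p = 7.47e-21). For both genes the highest Pmch-led section was below the lowest Hcrt-led section. Of the 7 tested orexin neuron genes 6 were called higher in Hcrt-led spots and none lower, with a median of −1.84: Scg2, Pdyn, Nptx2 (−1.89), Lhx9 (−1.84), Pcsk1 (−1.82) and Gal (−1.05). Slc17a6 was the gene of that list that was not called. The classes were not matched for the summed level of both peptides. Scg2, Pdyn, Nptx2, Lhx9 and Pcsk1 were also called higher in the core than around it, and Gal was not. Cartpt and Tacr3, which lead on the Pmch side below, were called higher in the core as well. The part of the summed level in this comparison was not tested.

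On the Pmch side, 3 of 8 MCH neuron genes were called and none was called on the Hcrt side, with a median of 0.38. They were Cartpt (1.01), Tacr3 (1.21) and Zic1 (1.32). Tacr3 had 14.4, 17.9, 39.3 and 57.9 CPM in Pmch-led and 15.1, 3.72, 16.3 and 24.1 CPM in Hcrt-led spots, so that P21 section 1, with 12 Hcrt-led spots, did not show the difference. Thalamic genes moved with the Pmch side, since 9 of 10 were called higher there with a median of 1.31, and their part in the calls was not tested. Dorsomedial genes moved with the Hcrt side: 3 of 6 were called higher there, Gal, Hmx2 (−1.62) and Hmx3 (−1.48), and none lower, with a median of −0.86, and their part was not tested either. Other genes called higher in Hcrt-led spots included Nts (−1.39), the galanin receptor Galr1 (−1.16), the urocortin receptor Crhr2 (−1.65) and the granule peptide Vgf (−0.91). None of 15 oligodendrocyte genes, 12 astrocyte genes or 12 microglial genes was called.

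**Figure D4:**
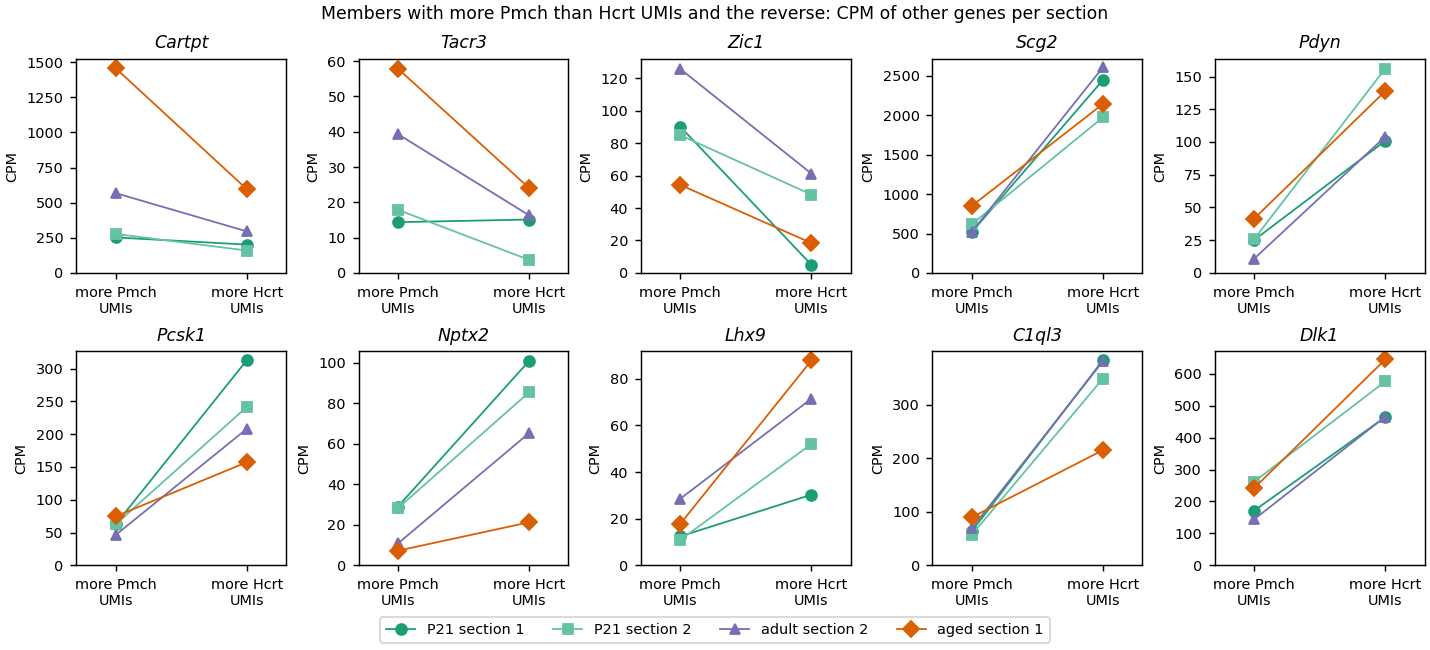
CPM of 10 genes in spots with more Pmch UMIs and in spots with more Hcrt UMIs, with 1 line and symbol for each of 4 sections. Scg2, Pdyn, Pcsk1, Nptx2, Lhx9, C1ql3 and Dlk1 rise towards the Hcrt-led spots in every section, and Cartpt falls in every section.

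The ages were compared over the sums of Pmch and Hcrt spots in 2 P21 sections, 1 adult and 1 aged section. As adult section 1 and aged section 2 held 4 spots each and were left out, the adult and aged sections are assumed to vary like the P21 sections, the fit has 1 residual degree of freedom, and p-values measure the spread between both P21 sections. Both comparisons share the same adult section. In P21 vs. adult 475 of 11451 genes were called, 4.15%, with 276 (2.41%) higher and 199 (1.74%) lower (edgeR). DESeq2 called 118 and edgeR's glmTreat 100 genes, and with a bound of 10000 CPM 74 were called.

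Of the MCH neuron genes, Cartpt was lower at P21, with 252 and 269.7 CPM against 521 CPM in the adult section (log2 fold change −0.999 ± 0.12 SE, edgeR adjusted p = 0.000134). Tacr3 was also lower, with 14.4 and 16.8 against 35.2 CPM (−1.22), and Adcyap1 was higher (0.63). In the core the value of Cartpt was −0.84 and called, and that of Tacr3 was −0.55 and not called. Among orexin neuron genes Gal was higher, with 102 and 115 against 53.8 CPM (1.002), Lhx9 was lower (−1.42), and Pdyn (0.22), Pcsk1 (−0.03) and Scg2 (−0.43) were not called. Of 20 granule and processing genes only Sytl4, a regulator of granule docking, was called, lower at P21 (−1.51). The 3 receptor genes Mchr1, Hcrtr1 and Hcrtr2 were at 0.65, 0.49 and 0.65 and were not called.

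Among genes of at least 20 CPM at the higher age and without overlap between ages, the 8 largest rises at P21 included 2 genes with no UMI in the adult section. Npw, the neuropeptide W precursor, had 36.2 and 63.3 CPM at P21, at least 51.8-fold higher against a floor of 3 counts over the adult sum, and Ccdc153, a gene of ciliated ependymal cells, was at least 31.9-fold higher. Hdc, the histamine synthesizing enzyme of tuberomammillary neurons, had 662 UMIs in both P21 sections and 1 in the adult section, a ratio of 126 (95% counting interval 22.4 to 4965). Tmem212, another ependymal gene, had 371 UMIs against 2, a ratio of 35.2 (9.67 to 291). Prph (peripherin, 4.50) and the globins Hbb-bt (3.56), Hbb-bs (3.56) and Hba-a2 (3.22) completed the list. Hbb-bs had 1253 and 873 CPM at P21 and 90.6 CPM in the adult section, and reads of the near-identical globin genes may be shared between them. Without P21 section 1 the value of Hbb-bt was 2.79.

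The lists of other cell types moved with this comparison. Of 15 oligodendrocyte genes 10 were called higher at P21, none lower, with a median of 1.08. That list summed to 33506 and 27062 CPM at P21, 16122 in the adult and 11522 in the aged section, with Mbp as its most abundant gene. All 4 erythrocyte genes were higher, with sums of 1919 and 1235 against 147 CPM, and 5 of 6 ependymal and tanycyte genes, with sums of 135 and 158.5 against 31.4 CPM. Genes of the arcuate nucleus were higher in 3 of 5 cases (Agrp, Npy and Tac2), while Avp and Oxt, 2 of the 4 paraventricular and supraoptic genes, were lower. Of 6 dorsomedial genes 4 were called higher (Gal, Grp, Npvf and Ppp1r17), with a median of 1.37, sums of 193 and 234 against 91.8 CPM and Gal as the most abundant gene, and of 5 ventromedial genes Adcyap1 and Esr1 were higher, with sums of 159 and 139 against 129 CPM. Gal and Adcyap1, given above with the orexin and MCH neuron genes, belong to these lists too. Avp stood at 1.78 and 1.68 CPM at P21 and 347 CPM in the adult section (−7.61), and Oxt at 0.465 and 3.64 against 55.4 CPM (−5.52). These are markers of other hypothalamic nuclei, so the anatomical level of the section cannot be told apart from age, and the part of the other cell types was not tested. Without P21 section 1 the value of Oxt was −3.91, and without P21 section 2 it was −6.84.

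Other falls at P21 were those of Il33 (an alarmin of mature oligodendrocytes, 19.1 and 17.6 against 169.9 CPM, −3.19), Pls1 (−2.02), Klk6 (a protease of oligodendrocytes, −1.88), Car2 (carbonic anhydrase, −1.63), Eps8l2 (−1.60) and Anln (−1.56). Il33 had 145 CPM in the aged section, close to the adult value. Imprinted genes were called higher in 5 of 16 cases (Asb4, Calcr, Magel2, Peg10 and Snrpn) and lower in none, with a median of 0.49. Gpr17, which marks newly formed oligodendrocytes, had 124 and 119 CPM against 24.96 CPM (2.29).

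In aged vs. adult 1436 of 11164 genes were called, 12.9%, with 775 (6.94%) higher and 661 (5.92%) lower (edgeR). DESeq2 called 307, 137 higher and 170 lower, and glmTreat 211, 91 higher and 120 lower, so the number of genes and the balance of directions depend on the tool. With a bound of 10000 CPM 625 were called. Cartpt was higher in the aged section, 1294 against 519 CPM (log2 fold change 1.32 ± 0.14 SE, edgeR adjusted p = 2e-05), and 3 more of the 8 MCH neuron genes were called higher, Gad1 (1.40), Amigo2 (0.86) and Adcyap1 (0.66), and 1 lower, Zic1 (−1.29). Over the 4 sections Cartpt thus had its lowest levels in both P21 sections and its highest in the aged section. Among orexin neuron genes Gal (53.6 to 188 CPM, 1.81) and Pdyn (25.2 to 59.8 CPM, 1.24) were higher and Nptx2 was lower (19.5 to 9.87 CPM, −0.98). Gal again moved with the dorsomedial list, of which 3 of 5 tested genes were called higher (Gal, Hmx2 and Npvf, median 1.14, sums of 91.6 and 271 CPM), and the part of that nucleus was not tested. The granule and processing genes Pam (0.79), Resp18 (0.76) and Vgf (0.92) were higher. In the core Cartpt (0.65), Gad1 (1.37), Gal (1.99) and Vgf (0.83) were called higher as well and Nptx2 lower (−1.51), while Pdyn (0.50) was not called.

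The same rule was used here, but with 1 section at each age its overlap criterion is always met and selects nothing. By this rule the 8 largest rises in the aged section included those of the heat shock genes Hspa1b (9.58 to 120.9 CPM, 3.65) and Hspa1a (2.44), whose near-identical sequences may share reads. Others were Cdkn1a (the p21 inhibitor of the cell cycle, 2.90), Npvf (2.89), C4b (complement component, 36.7 to 264 CPM, 2.84), Dnase1l2 (2.67) and Hif3a (2.40). C4b stood at 20.1 and 12.1 CPM in the P21 sections, so that the aged section was above all others. Of 12 reactive and immune genes tested, 7 were called higher and none lower, with a median of 0.94: C4b, Serpina3n (2.38), H2-D1 (1.26), H2-K1 (1.29), B2m (0.73), Vim (0.85) and Lgals3, the last with 1 UMI in the adult section. In the core the values of C4b and Serpina3n were 2.88 and 2.57. The list was not particular to the Pmch and Hcrt spots in this rise. From the adult to the aged section it went from 362 to 882 CPM in them and from 365 to 1189 CPM nearby. Against all other spots the sums were 358 and 873 CPM in the Pmch and Hcrt spots and 332 and 813 CPM elsewhere. Of 15 oligodendrocyte genes 6 were lower and none higher, with a median of −0.40, of which Opalin, a myelin gene, had the largest fall (−2.55).

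The largest fall by that rule was that of Cntnap2, a neurexin family gene, which had 132 UMIs in the adult section and 1 in the aged section, a ratio of 158 (95% counting interval 27.9 to 6285). In the core Cntnap2 had 50.6, 62.1, 66.1 and 0.593 CPM and around it 28.8, 42.5, 35.5 and 0.651 CPM. It was thus higher in the core than around it in both P21 sections and the adult section and near 0 on both sides in the aged section. For this gene age and probe design cannot be told apart. The other falls were those of Gabrd (a GABA-A receptor subunit, −4.38), Slc17a7 (the cortical glutamate transporter, −4.20), Neurod2 (−3.75), Rtn4rl2 (−3.69), Cck (−3.54), Prkcd (−3.50) and Ramp3 (−3.40). All 10 thalamic genes were lower, with sums of 1659 CPM in the adult and 419 in the aged section, and 8 of 10 cortical genes, with sums of 1653 and 507 CPM. Both lists were lowest in the aged section, where the scatter of Pmch and Ttr was also least among the compared sections. Both lists were higher in the adult section than in either P21 section. Whether scatter had a part in these sums was not tested. The part of these lists in the falls was not tested.

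**Figure D5:**
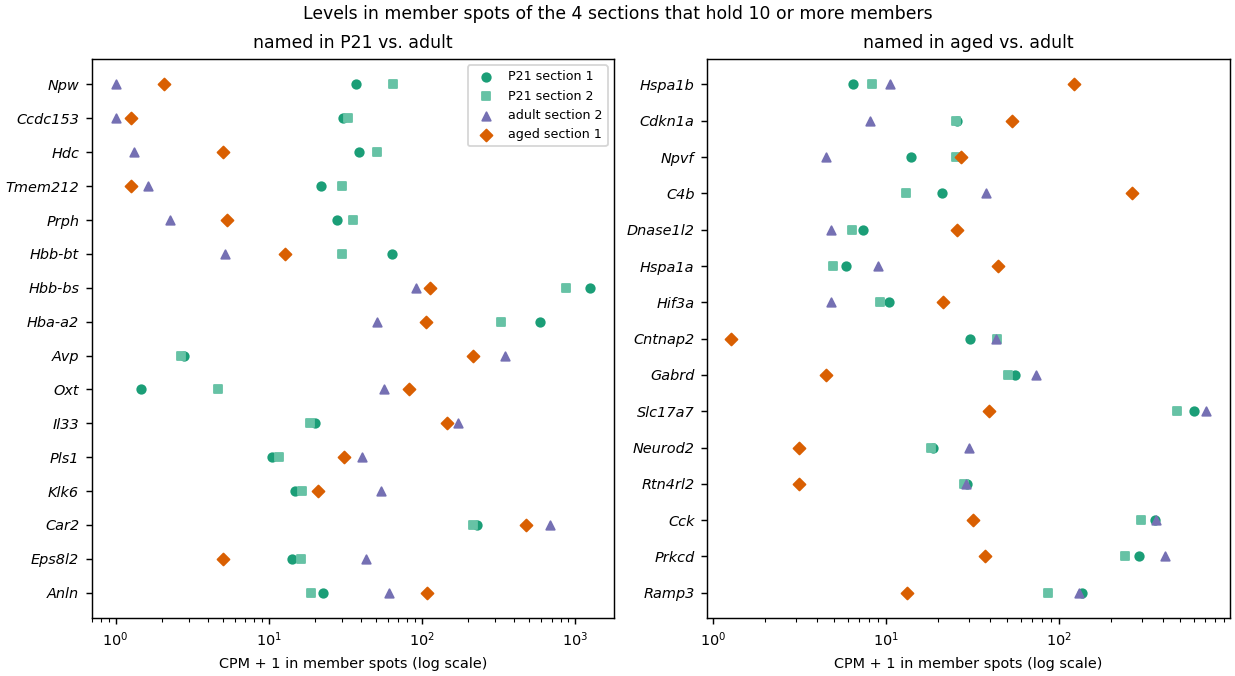
CPM + 1 (log scale) in the Pmch and Hcrt spots of 4 sections for the genes named in P21 vs. adult (left) and aged vs. adult (right); each symbol is a section. Both P21 sections lie on the same side of the adult section for all genes of the left panel, and the aged section stands apart from all others for C4b, Hspa1b and Slc17a7.

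Whether an age difference in the Pmch and Hcrt spots differed from that in the spots around them was tested as an interaction. The section was a block, which takes up what acts alike on both sums of a section. This fit too has 1 residual degree of freedom, with 1 adult and 1 aged section. Its p-values thus measure the spread between both P21 sections, and the adult and aged sections are assumed to vary like them. In P21 vs. adult 49 of 11451 genes were called, 0.428%, 8 (0.0699%) with a higher and 41 (0.358%) with a lower difference in the Pmch and Hcrt spots. Cartpt led them, with 249.9 and 268 CPM at P21 and 518 CPM in the adult within the spots and 139, 148 and 110.0 CPM nearby (log2 difference of differences −1.39 ± 0.11 SE, edgeR adjusted p = 3.72e-07). It was lower at P21 inside the patch and not outside it. Scg2 had 542, 716 and 847 CPM inside and 368, 457 and 284 CPM nearby (−0.98 ± 0.10, edgeR adjusted p = 9.58e-06). The other genes with the smallest p were Gpx3 (−1.27), 6330403K07Rik (−0.86) and Ptgds (−1.18). With a bound of 500 CPM these 3 turned to 0.57, 0.40 and 0.38, and 6330403K07Rik was 0.073 against all other spots. With a bound of 10000 CPM only Scg2 was called (−1.09). Cartpt lost its call there, at −0.65, with 909 and 746 CPM at P21 and 1488 CPM in the adult core and 301, 196 and 287 CPM around it. Gpx3 and 6330403K07Rik lost their calls and Ptgds changed sign. In the core comparison Gpx3 had 402 and 435 CPM at P21 and 451 CPM in the adult core, and 242, 209 and 148 CPM around it. 6330403K07Rik had 1236, 1452 and 1648 CPM in the core and 1025, 841 and 699 CPM around it. At P21 both genes were thus still below the adult value in the core and above it around the core. DESeq2 called 2 genes at 1000 CPM, so the number of such genes depends on the bound and on the tool.

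In aged vs. adult 70 of 11164 genes were called, 0.627%, 14 (0.125%) with a higher and 56 (0.502%) with a lower difference in the Pmch and Hcrt spots. The 5 genes with the smallest p were the hormone genes Avp (−2.23) and Oxt (−2.50), the thalamic Prkcd (−2.65), Rasgrp1 (a Ras activator of forebrain neurons, −2.12) and the cortical Slc17a7 (−1.73). Avp had 343 CPM in the adult and 209.7 in the aged section inside the patch and 512 and 1469 CPM nearby. Cartpt was called in the other direction (1.27), with 515 and 1285 CPM inside and 110.0 and 114 CPM nearby, as were the peptide genes Penk (1.16), Tac2 (1.48) and Trh (1.39). With a bound of 10000 CPM 3 genes were called, Prkcd (−2.31), Cck (−1.96) and Gda (−1.77). Avp (−0.74), Oxt (−1.25), Slc17a7 (−1.16) and Rasgrp1 lost their calls, as did Cartpt (0.32, with 1501 CPM in the adult and 2323 CPM in the aged core and 285 and 354 CPM around it). The nearby level of Avp also turned with the bound: around the core it was 434 CPM in the adult and 69.2 CPM in the aged section, against a higher value in the aged section around the spots of 1000 CPM.

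The 4 spots each of adult section 1 and aged section 2 entered no comparison. In adult section 1 they touched each other at array rows 48 to 49 and columns 79 to 83, with 333, 343, 64 and 24 Pmch UMIs and no Hcrt UMI. The whole section held 6 Hcrt UMIs. In these spots 3 Cartpt UMIs were counted, 38.2 CPM (exact 95% Poisson interval 7.87 to 112), against 48.3 CPM in the other spots. Their 2 Tacr3 UMIs gave 25.4 CPM (3.08 to 91.9), against 1.95 CPM in the other spots. In aged section 2 the 4 spots lay at rows 56 to 57 and columns 68 to 71 with 105, 49, 41 and 22 Pmch UMIs, no Hcrt UMI and 1 Cartpt UMI, and the section held 98 Hcrt UMIs. Cartpt stood there at 8.62 CPM (0.218 to 48.0) against 108 CPM in the other spots, and Tacr3, with 4 UMIs, at 34.5 CPM (9.39 to 88.2) against 3.24 CPM. In both sections the interval of Tacr3 lay above the level of the other spots, while that of Cartpt held it in adult section 1 and lay below it in aged section 2. Both sections thus held a small Pmch site, with as much as 19211 CPM in a spot of adult section 1 and 2929 CPM in aged section 2, and without Hcrt in the same spots.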

How the data were processed

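The deposited files hold raw UMI counts per gene and spot for 19465 genes, made by the authors with Space Ranger (headers give 2.0.0 where sections lay on direct slides and 3.1.1 where CytAssist was used). The submitters' processing notes name Space Ranger 2.1.0, Seurat 5.1.0 and mm10. Moran's I is a score per gene from Space Ranger, used as deposited. Spots under 500 UMIs were removed. Counts of Pmch and Hcrt spots and of comparison spots were summed per section, Pmch and Hcrt were taken out, and sums were fitted in edgeR 4.0.16 (R 4.3.3; TMM, glmQLFit and glmQLFTest, section as block where both sums came from a section) over genes that passed filterByExpr and were detected in over 10% of spots, with Benjamini-Hochberg adjustment. Total counts per section ran from 42422997 to 106783660 UMIs, and those of the Pmch and Hcrt spots in the 4 compared sections from 3149786 to 13028347.

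Spots and gene lists were chosen with earlier results of these data known, and lists are described by counts and medians with no test of their own. Named genes were the 10 largest rises and 5 largest falls among called genes of at least 20 CPM that moved one way in every section (8 and 8 without overlap between ages, 5 smallest p for interactions), beside members of the lists; Slc2a13, Nnat, 6330403K07Rik and the core comparison's Otx1, and genes cited only for contrast, were named after their values were seen. Alternatives were DESeq2 1.42.0, other filters, bounds, neighbourhoods, glmTreat and leaving out sections. The tests were tried on simulated data. Intervals cover counting error only. Values of some genes, also among those the rule names, are not reported here.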

Additional observations from a re-analysis of the deposited data

Results flagged for a closer look

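In P21 vs. adult the difference inside the Pmch and Hcrt spots departed from that in the spots within 3 spacings in 49 genes by the edgeR interaction test. The 5 with the smallest p were Cartpt, with a log2 difference of differences of −1.39, Scg2 (−0.98), Gpx3 (−1.27), 6330403K07Rik (−0.86) and Ptgds (−1.18). In aged vs. adult 70 genes departed in this way, led by Avp (−2.23), Prkcd (−2.65), Oxt (−2.50), Rasgrp1 (−2.12) and Slc17a7 (−1.73). Of these 10 genes only Scg2 and Prkcd were called with a bound of 10000 CPM. Gpx3 had 185 and 274 CPM at P21 and 201 CPM in the adult inside the patch, and 121, 176 and 54.1 CPM nearby. Both interactions come from a fit with 1 adult section, 1 aged section and 1 residual degree of freedom. The p-values measure the spread between both P21 sections.

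Pmch and Hcrt spots were also present in both sections that entered no comparison, 4 in adult section 1 and 4 in aged section 2.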

How the results depend on the processing

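Against all other spots the 1467 called genes became 1293 to 1570 when a section was left out, and against nearby spots the 484 became 430 to 497. With a bound of 2000 CPM 220 genes were called against nearby spots, 29.1% of them higher against 40.7% at 1000 CPM, and with 10000 CPM 116, of which 63.8% were higher; without the section block none was called by edgeR and 116 by DESeq2. At 10000 CPM Nxph4 (−0.28) and Sncg (−0.10) changed sign. Pmch against Hcrt spots gave 5 to 17 genes with a section left out (5 without adult section 2, 17 without aged section 1), 122 with classes by the more abundant gene and 2 without the block (3 by DESeq2).

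P21 vs. adult gave 118 genes by DESeq2, 100 by glmTreat and 74 at 10000 CPM; aged vs. adult gave 307 (44.6% higher, against 54.0%), 211 (43.1% higher) and 625. The 49 interaction genes of P21 vs. adult became 2 by DESeq2, 81 among genes detected in 10% of all spots, 87 with filterByExpr alone, 74 without aged section 1, 134, 18 and 1 with bounds of 500, 2000 and 10000 CPM, 27 without touching spots and 96 against all other spots. Gpx3 (0.57), 6330403K07Rik (0.40) and Ptgds (0.38) reversed at 500 CPM, Ptgds (0.10) at 10000 CPM and 6330403K07Rik (0.073) against all other spots. The 70 genes of aged vs. adult became 13 by DESeq2, 113 among genes detected in 10% of all spots, 445, 12 and 3 with the 3 bounds and 510 against all other spots. The causes of these changes were not tested.

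P21 section 1 held 1093, 339 and 38 spots at 500, 2000 and 10000 CPM and 712 when spots were thinned to 5000 UMIs; P21 section 2 held 540, 124, 27 and 289, adult section 2 held 331, 113, 37 and 234, aged section 1 held 353, 239 and 126, and aged section 2 held 1 at 2000 CPM and 0 at 10000 CPM. Of the other values, 766 with a test kept their direction and side of the threshold and 66 lost their call; of values without a test, 74 moved by less and 10 by more than the SE of the fit with all sections, all of them with a P21 section left out. The bounds of 10000 CPM and the classes by the more abundant gene were chosen after seeing the data.

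No paired analysis was possible because a replicate block leaves 0 residual degrees of freedom in the age comparisons. Leaving out the only adult or aged section leaves no section at that age and was not run, and leaving out a P21 section leaves values with no test.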
